A study of Homo sapiens with 16 samples.

Results

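DLEU2 is a long non-coding RNA gene of human chromosome band 13q14, and its transcript is the host of the microRNAs miR-15a and miR-16-1. It is described here with 4 protein-coding or non-coding genes beside it, namely DLEU1, TRIM13, RNASEH2B and SPRYD7. The members were chosen by platform annotation, as every probe set that names exactly 1 of these 5 gene symbols. That gave 5 of the 19775 genes with such a probe set, and 18 of the 54613 probe sets that are not controls, 7 for DLEU2, 1 for DLEU1, 4 for TRIM13, 4 for RNASEH2B and 2 for SPRYD7. DLEU2 itself was picked on measured values, because it was lower with AFN700 in 7 of 8 cell lines, so its AFN700 values below are a description without a test. The genes around it were taken in to see whether they moved with it, and their AFN700 values come from the same contrast and also carry no test.

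The arrays came from 8 human B-cell lines that the study files as mantle cell lymphoma, a cancer of mature B cells. Each line received either AFN700 at 5 uM, which inhibits IKKbeta, a kinase upstream of NF-kB, or 0.025% DMSO, the solvent, for 20 h. REC-1 and SP49 carried the label sensitive to "stn/ibrutinib" (ibrutinib inhibits the kinase BTK of the B-cell receptor pathway), and JVM-13, JVM-2, Maver-1, Z-138, GRANTA-519 and HBL-2 carried the label insensitive. There was 1 array for each line and treatment, 16 in all, so the lines are the replicates and the spread within a line is unknown. Arrays of whole cultures cannot tell fewer expressing cells from less RNA per cell. The medium was RPMI for 7 lines and DMEM for GRANTA-519. For JVM-13 the label of the treated array is AFN700 in the title but AFN701 in 2 other fields.

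The 13q14 region is deleted in many chronic lymphocytic leukaemias and in some mantle cell lymphomas, and miR-15a and miR-16-1 are known there as repressors of BCL2 and of cell cycle genes. From the DLEU2 start that lies beside that of DLEU1, the genes are transcribed away from each other. The upstream DLEU2 start is at 50125541 on the minus strand. A transcript from it to the microRNAs crosses the DLEU1 start at 50082169 on the plus strand. TRIM13, which encodes a ubiquitin ligase, and KCNRG lie within the span of DLEU2 on the opposite strand. RNASEH2B encodes a subunit of ribonuclease H2, which removes ribonucleotides from DNA, and SPRYD7 encodes a SPRY domain protein. In the order of RefSeq's gene table the members run SPRYD7, DLEU2, TRIM13, DLEU1 and RNASEH2B.

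The mature microRNAs of the locus are shown because genes reported as their targets are described further on, with 2 microRNAs from other chromosomes that share their seed. Capitals mark the seed, bases 2 to 8 from the 5′ end, and the sequences are those of RefSeq (GRCh38.p14). The first pair is hosted by DLEU2, at chr13:50049167-50049188 and chr13:50049027-50049048 on the minus strand, miR-15b lies at chr3:160404607-160404628 on the plus strand in SMC4, and miR-195 at chr17:7017667-7017687 on the minus strand.
hsa-miR-15a-5p: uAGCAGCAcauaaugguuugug
hsa-miR-16-5p: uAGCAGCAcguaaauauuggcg
hsa-miR-15b-5p: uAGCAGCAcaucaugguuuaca
hsa-miR-195-5p: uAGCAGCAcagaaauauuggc
All 4 hold the seed AGCAGCA, as do 7 of the 2370 mature human microRNAs in that table. The arrays were read here for the host transcripts, and the mature microRNAs were not analysed.

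RefSeq gives DLEU2 an upstream start and a second start beside that of DLEU1. The window of 250 bases before to 50 bases after the upstream start (chr13:50125492-50125791, minus strand) is printed because AFN700 acts on the pathway whose factor binds kappa B sites. Capitals mark a CACGTG E-box, the motif of MYC and related factors, and 2 overlapping matches to the kappa B consensus, both searched on both strands.
DLEU2 upstream start: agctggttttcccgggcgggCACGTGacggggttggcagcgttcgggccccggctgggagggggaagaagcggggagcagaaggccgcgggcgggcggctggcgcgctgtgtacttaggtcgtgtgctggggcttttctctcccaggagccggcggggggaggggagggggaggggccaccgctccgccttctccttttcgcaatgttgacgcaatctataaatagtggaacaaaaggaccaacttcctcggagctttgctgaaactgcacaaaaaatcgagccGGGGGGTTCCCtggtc
The window of the second DLEU2 start (chr13:50081992-50082291, minus strand) overlaps that of DLEU1 on the plus strand, and it is shown on DLEU1's strand because 1 stretch of DNA serves both genes.
DLEU1 start: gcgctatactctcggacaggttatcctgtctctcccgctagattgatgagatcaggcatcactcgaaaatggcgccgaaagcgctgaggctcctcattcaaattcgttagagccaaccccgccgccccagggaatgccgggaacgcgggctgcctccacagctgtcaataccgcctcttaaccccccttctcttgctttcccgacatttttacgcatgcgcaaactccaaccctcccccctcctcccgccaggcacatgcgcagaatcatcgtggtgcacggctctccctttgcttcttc
That window (chr13:50081919-50082218) held neither set of letters. The kappa B consensus was present in 11.3% and the E-box in 7.26% of the 35116 windows of this length in the table, and a match of letters describes the window without showing a bound site.

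Levels are linear array intensities, scaled by the authors so that the trimmed mean of every array is 150, and differences are AFN700 minus DMSO on the scale log2(intensity + 3.3). Intensities of different probe sets do not measure the relative amounts of different RNAs. A probe set was taken as measured where it lay above its array's 60th percentile (an intensity of 21.5 to 31.7) on at least 2 arrays, which 28116 probe sets did. Of the 18 member probe sets 15 passed, 5 of the 7 for DLEU2 and 10 of the 11 for its neighbours. The dim ones were DLEU2 1564443_at and 242854_x_at, with highest values of 28.0 and 11.7 on AFN700 arrays and 27.3 and 9.2 on DMSO arrays, and SPRYD7 214668_at, with highest values of 3.2 and 2.7.

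The pair of JVM-13 arrays stood apart from the other pairs. Its AFN700 and DMSO arrays differed over 2-fold at 36.5% of the measured probe sets and correlated at 0.888, against 2.39% to 20.3% and 0.943 to 0.988 in the other 7 lines, with the upper share in HBL-2. The median log2 level was 6.55 on the JVM-13 DMSO array and 6.72 to 6.93 on the other 15 arrays. The ratio of 3′ to 5′ actin signal, a sign of RNA quality, was 16.7 with AFN700 and 1.90 with DMSO in HBL-2, 18.8 and 10.3 in Maver-1, and 6.39 and 2.73 in SP49. The B-cell genes MS4A1, CD79A, CD79B, PAX5 and CD22 were above the 60th percentile on 16 of 16 arrays, with summed levels of 6039 to 11230 on AFN700 arrays and 5141 to 10251 on DMSO arrays. Of the mantle cell markers, SOX11 was at most 0.6 with AFN700 and 1.4 with DMSO in JVM-2 and JVM-13, CCND1 (cyclin D1) was 2.3 and 4.8 in JVM-13 and 79.1 and 78.7 in JVM-2, and CD5 was above the percentile on 2 of 16 arrays.

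At its 2 brightest probe sets DLEU2 was lower with AFN700 in 7 of the 8 lines, by about 2-fold on average over these 7, and higher in JVM-13. The dimmer DLEU2 probe sets did not share this, as given below. At the brightest probe set, 216870_x_at, the levels with AFN700 were 253.2 in REC-1, 79.5 in SP49, 88.7 in HBL-2, 53.0 in GRANTA-519, 125.9 in Maver-1, 357.5 in Z-138, 302.5 in JVM-2 and 250.4 in JVM-13. With DMSO they were 491.3 in REC-1, 137.9 in SP49, 174.9 in HBL-2, 171.4 in GRANTA-519, 249.2 in Maver-1, 751.0 in Z-138, 568.9 in JVM-2 and 37.7 in JVM-13. The ranges of the treatments overlapped, since the lines differed from each other by more than AFN700 and DMSO did within a line. In JVM-13 the DMSO array was the low one, and its AFN700 level lay within the range of the other treated lines.

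**Figure D1:**
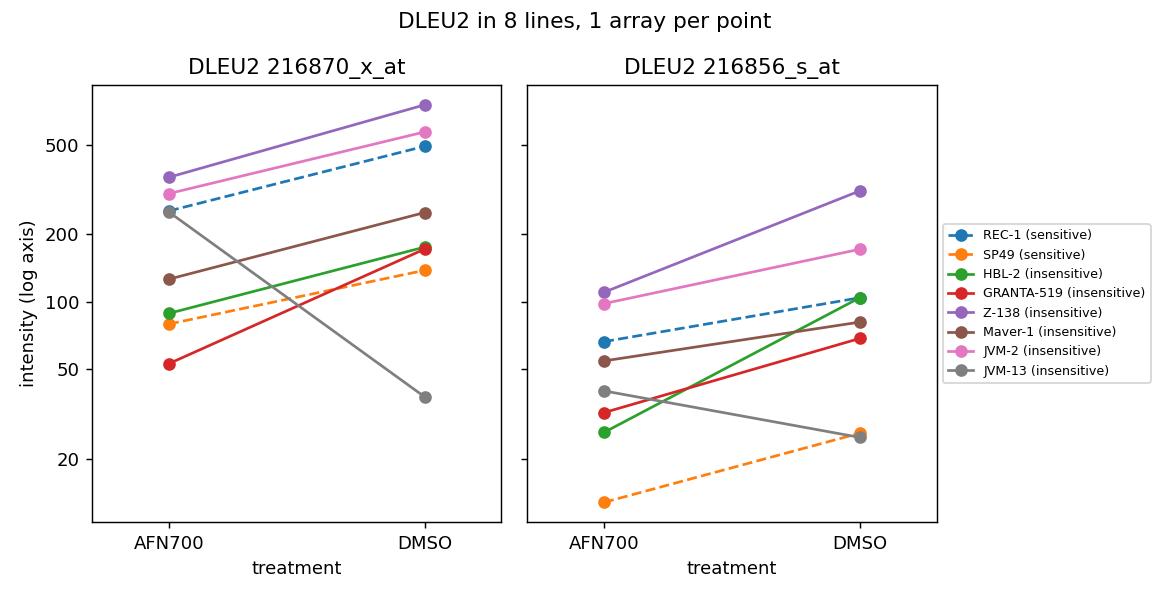
Intensity (log axis) of the 2 brightest DLEU2 probe sets with AFN700 (left) and DMSO (right), 1 point per array, joined within each line, dashed for the sensitive lines. At 216870_x_at 7 lines were lower with AFN700, and JVM-13 was at 250.4 with AFN700 and 37.7 with DMSO.

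The AFN700 minus DMSO difference of 216870_x_at was -0.58 ± 1.32 on the log2 scale (SD, n = 8 lines), with a median of -0.95. Without JVM-13 it was -1.03 ± 0.28 (n = 7), a fold of 0.488, and the single lines lay between -1.63 in GRANTA-519 and -0.77 in SP49. In JVM-13 it was 2.63, and it stayed high there, at 2.46, with each array centred on its median, and at 2.48 after quantile normalization. In that line 5756 probe sets were over 2-fold higher and 4503 over 2-fold lower with AFN700, and the part this has in the DLEU2 value was not tested.

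Lower values in at least 7 of 8 lines were seen at 5.77% of all measured probe sets, and values at least 1.5-fold lower in at least 7 lines at 4 probe sets, 0.0142%. Because this contrast was the reason for picking DLEU2, nothing is read from its place among them. The other 3 were BLTP3B 1562098_at, ING3 231863_at and 215629_s_at, which the platform annotates to DLEU2 together with MIR15A and DLEU2L and which is therefore no member. The last probe set differed by -1.79 (GRANTA-519) to -0.67 (SP49) in the 7 lines and by 2.92 in JVM-13. DLEU2L is a near-identical copy of DLEU2 on chromosome 1. The suffixes of 216870_x_at, of 215629_s_at and of DLEU2 216856_s_at, described next, mark probes that match more than 1 transcript. Signal from the copy therefore cannot be told apart from DLEU2 here.

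The second bright probe set gave the same direction in the same lines. At DLEU2 216856_s_at the AFN700 levels were 66.4 in REC-1, 12.8 in SP49, 26.2 in HBL-2, 32.1 in GRANTA-519, 54.5 in Maver-1, 110.1 in Z-138, 98.0 in JVM-2 and 40.1 in JVM-13. The DMSO levels were 104.1 in REC-1, 26.0 in SP49, 104.1 in HBL-2, 68.6 in GRANTA-519, 81.1 in Maver-1, 311.0 in Z-138, 171.1 in JVM-2 and 24.9 in JVM-13. JVM-13 was again the 1 line with the higher AFN700 level, and HBL-2 and Z-138 were the lines with the widest gap. In SP49 both levels were under the 60th percentile of their arrays (29.8 with AFN700 and 29.2 with DMSO). The AFN700 level in HBL-2 and the DMSO level in JVM-13 were just above it (24.7 and 24.6). The HBL-2 pair had actin ratios of 16.7 with AFN700 and 1.90 with DMSO, and the part of RNA quality was not tested. The mean difference was -0.82 ± 0.73 (SD, n = 8) and -1.03 ± 0.48 without JVM-13 (n = 7).

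The dimmer DLEU2 probe sets did not share this pattern. DLEU2 1556820_a_at ranged from 26.5 to 80.8 with AFN700 and from 18.5 to 87.6 with DMSO, and was lower with AFN700 in 5 of 8 lines (mean difference -0.19 ± 0.61, SD). DLEU2 1556821_x_at ranged from 6.9 to 41.1 and from 9.2 to 52.1, and was lower in 6 lines (-0.30 ± 0.61). DLEU2 1569600_at ranged from 4.5 to 56.1 and from 3.7 to 46.8, and was lower in 5 lines (-0.25 ± 0.59). Without JVM-13 the means were -0.26, -0.30 and -0.31, and without HBL-2 they were -0.01, -0.14 and -0.12. The brighter 216870_x_at and 216856_s_at averaged -0.52 and -0.67 without HBL-2. HBL-2 had the lowest difference at each of the 3 dimmer probe sets, between -1.45 and -1.19, and the signs in the other lines were mixed. HBL-2 was also the line with the widest gap in the actin ratio, 16.7 with AFN700 and 1.90 with DMSO, and the part of RNA quality in these values was not tested. DLEU2 1556820_a_at was above the 60th percentile on 13 of 16 arrays, against 14 for 216856_s_at, so it was detected about as often. DLEU2 1556821_x_at and 1569600_at were above it on only 6 and 2 arrays.

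DLEU1, the non-coding gene on the opposite strand to DLEU2, did not show the 2-fold gap. DLEU1 205677_s_at read 186.7 in REC-1, 1.2 in SP49, 270.2 in HBL-2, 94.4 in GRANTA-519, 225.0 in Maver-1, 287.8 in Z-138, 247.7 in JVM-2 and 195.6 in JVM-13 with AFN700. With DMSO it read 267.7 in REC-1, 4.5 in SP49, 286.0 in HBL-2, 111.4 in GRANTA-519, 162.7 in Maver-1, 389.5 in Z-138, 248.7 in JVM-2 and 73.4 in JVM-13. SP49 had next to no DLEU1 signal under either treatment. The brightest DLEU2 and TRIM13 probe sets were above the percentile of the filter on both SP49 arrays. DLEU2 216870_x_at read 79.5 with AFN700 and 137.9 with DMSO there, and TRIM13 203659_s_at read 657.4 and 613.1. DLEU2 216856_s_at, 1556821_x_at and 1569600_at were under that percentile on both SP49 arrays, and TRIM13 229943_at was under it with DMSO. The mean DLEU1 difference was -0.03 ± 0.68 (SD, n = 8) with 6 lines lower. Without JVM-13 it was -0.23 ± 0.41 (n = 7), and JVM-13 itself stood at 1.37.

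**Figure D2:**
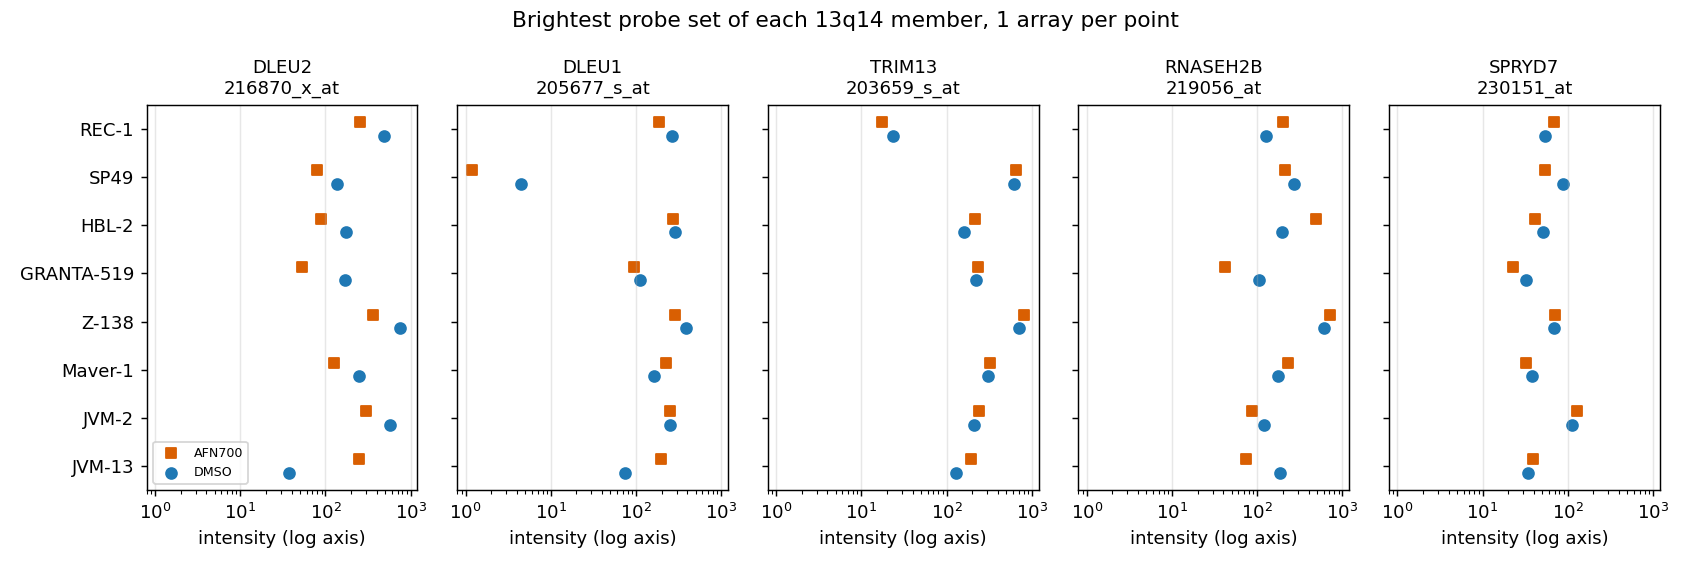
Intensity (log axis) of the brightest probe set of each gene in the 8 lines, with AFN700 as squares above DMSO as circles, 1 array per point. DLEU1 is near the floor in SP49 (1.2 and 4.5), and TRIM13 is low in REC-1 (17.5 and 23.7).

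TRIM13, the ubiquitin ligase gene inside the DLEU2 span, was slightly higher with AFN700 in 7 of 8 lines. TRIM13 203659_s_at read 17.5 in REC-1, 657.4 in SP49, 216.3 in HBL-2, 233.6 in GRANTA-519, 325.1 in Maver-1, 804.4 in Z-138, 236.8 in JVM-2 and 192.9 in JVM-13 with AFN700. With DMSO it read 23.7 in REC-1, 613.1 in SP49, 161.6 in HBL-2, 219.3 in GRANTA-519, 305.5 in Maver-1, 705.8 in Z-138, 210.6 in JVM-2 and 128.6 in JVM-13. REC-1 was far below every other line on both arrays, and it was the 1 line in which the AFN700 level was the lower one. The mean difference was 0.16 ± 0.28 (SD, n = 8) and 0.10 ± 0.24 without JVM-13 (n = 7). Values higher in at least 7 of 8 lines were seen at 7.86% of all measured probe sets.

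A second TRIM13 probe set showed the same low level in REC-1. TRIM13 230192_at was 12.0 with AFN700 and 10.8 with DMSO in REC-1, against 54.2 to 507.9 and 32.9 to 436.6 in the other lines, and was higher with AFN700 in 6 of 8 lines (0.21 ± 0.26, SD). TRIM13 1569142_at and 229943_at, both dim, were lower in 5 and 4 lines with mean differences of -0.33 ± 0.88 and -0.05 ± 0.51 (-0.09 and -0.08 without JVM-13), and the first of them was at -2.01 in JVM-13.

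RNASEH2B had no shared direction across its 4 probe sets. RNASEH2B 219056_at read 199.8 in REC-1, 213.5 in SP49, 487.1 in HBL-2, 41.5 in GRANTA-519, 230.5 in Maver-1, 720.3 in Z-138, 87.4 in JVM-2 and 74.2 in JVM-13 with AFN700. With DMSO it read 126.1 in REC-1, 268.3 in SP49, 197.5 in HBL-2, 104.9 in GRANTA-519, 174.3 in Maver-1, 610.2 in Z-138, 119.6 in JVM-2 and 186.8 in JVM-13. It was lower in 4 lines and higher in 4, between -1.29 in JVM-13 and 1.29 in HBL-2. RNASEH2B 229210_at ranged from 84.6 to 460.5 with AFN700 and from 90.7 to 402.4 with DMSO, with a mean difference of -0.14 ± 0.33 (SD). The gap in HBL-2 at 219056_at was not shared by 229210_at, which differed by -0.05 there. RNASEH2B 215040_at was higher in 6 lines (0.19 ± 1.14, and 0.55 ± 0.59 without JVM-13), and the dim 233156_at was lower in 6 lines (-0.33 ± 0.30).

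SPRYD7, on the far side of DLEU2, was spread evenly around no difference. SPRYD7 230151_at read 69.9 in REC-1, 54.7 in SP49, 40.8 in HBL-2, 22.7 in GRANTA-519, 32.3 in Maver-1, 70.9 in Z-138, 129.8 in JVM-2 and 38.8 in JVM-13 with AFN700. With DMSO it read 53.6 in REC-1, 87.3 in SP49, 51.9 in HBL-2, 32.3 in GRANTA-519, 37.6 in Maver-1, 69.5 in Z-138, 111.0 in JVM-2 and 33.8 in JVM-13. It was lower in 4 lines and higher in 4 (-0.10 ± 0.36, SD, n = 8). None of the 10 measured probe sets of the neighbours was lower in at least 7 lines, which 5.77% of all measured probe sets were, and nothing is read from this count.

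**Figure D3:**
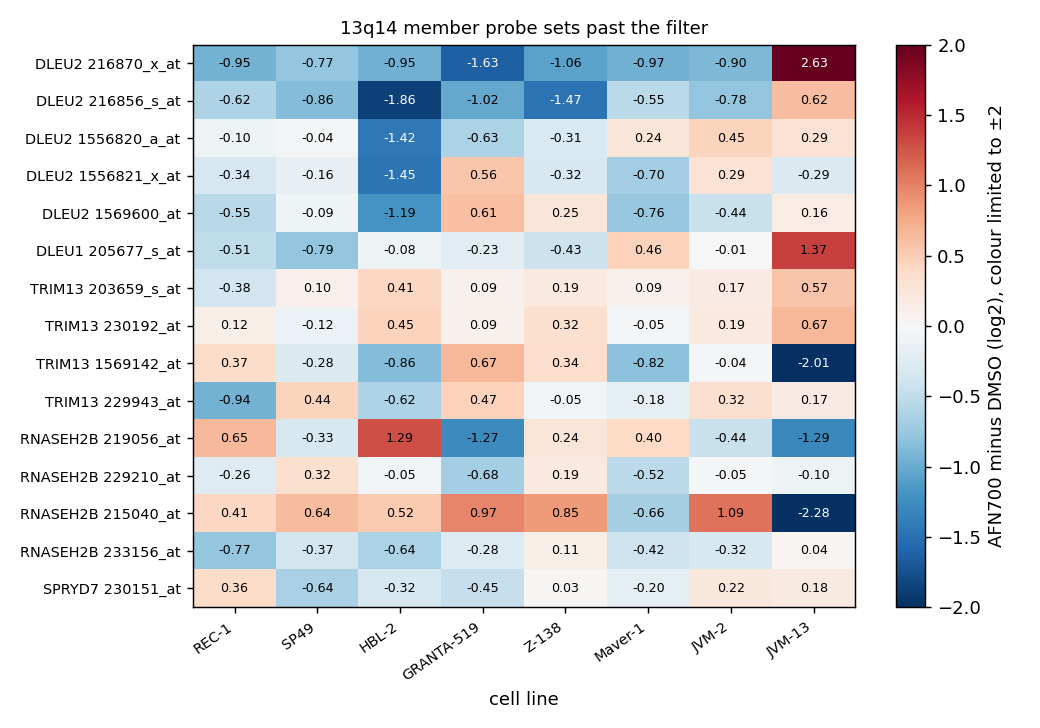
AFN700 minus DMSO difference (log2, value in each cell, colour limited to ±2) of the 15 measured member probe sets in the 8 lines. The upper 2 rows, DLEU2 216870_x_at and 216856_s_at, are below 0 in 7 lines, and the rows of the neighbours have mixed signs.

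The wider 13q14 neighbourhood was read from 34 further genes listed by position, of which 29 had a single-gene probe set and 23 passed the filter. Over 8 lines 8 of the 23 had a mean difference below 0, with a median of 0.09, against 4564 of all 12305 genes and a median of 0.06. None of the 23 was lower in at least 7 lines, which 506 of all 12305 genes were, and nothing is read from this count. None was called by limma with the line as a block at an adjusted p under 0.05. Over all measured probe sets that fit called 0, or 0%, with 2167 at an unadjusted p under 0.05, and it called 45 when JVM-13 was left out, none of them among the 23. Over 8 lines the lowest means belonged to LPAR6, a lysophosphatidic acid receptor gene (-0.26 ± 0.43, SD), KPNA3, a nuclear import receptor gene (-0.17 ± 0.19), and EBPL (-0.14 ± 0.21). The highest belonged to ITM2B (0.29 ± 0.63), the kinase gene NEK5 (0.29 ± 0.25) and SETDB2, a histone methyltransferase gene (0.26 ± 0.47). This order rested on JVM-13, where ITM2B was at 1.78 and SETDB2 at 1.23. Without that line ITM2B averaged 0.08, SETDB2 0.12, LPAR6 -0.18, KPNA3 -0.12 and EBPL -0.17, the lowest were DHRS12 (-0.26), ARL11 (-0.22) and INTS6 (-0.20), and the highest were NEK5 (0.28), RCBTB1 (0.27) and FNDC3A (0.19). Then 11 of the 23 were below 0, against 5348 of all 12305 genes, and DLEU2 stood at -1.03.

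**Figure D4:**
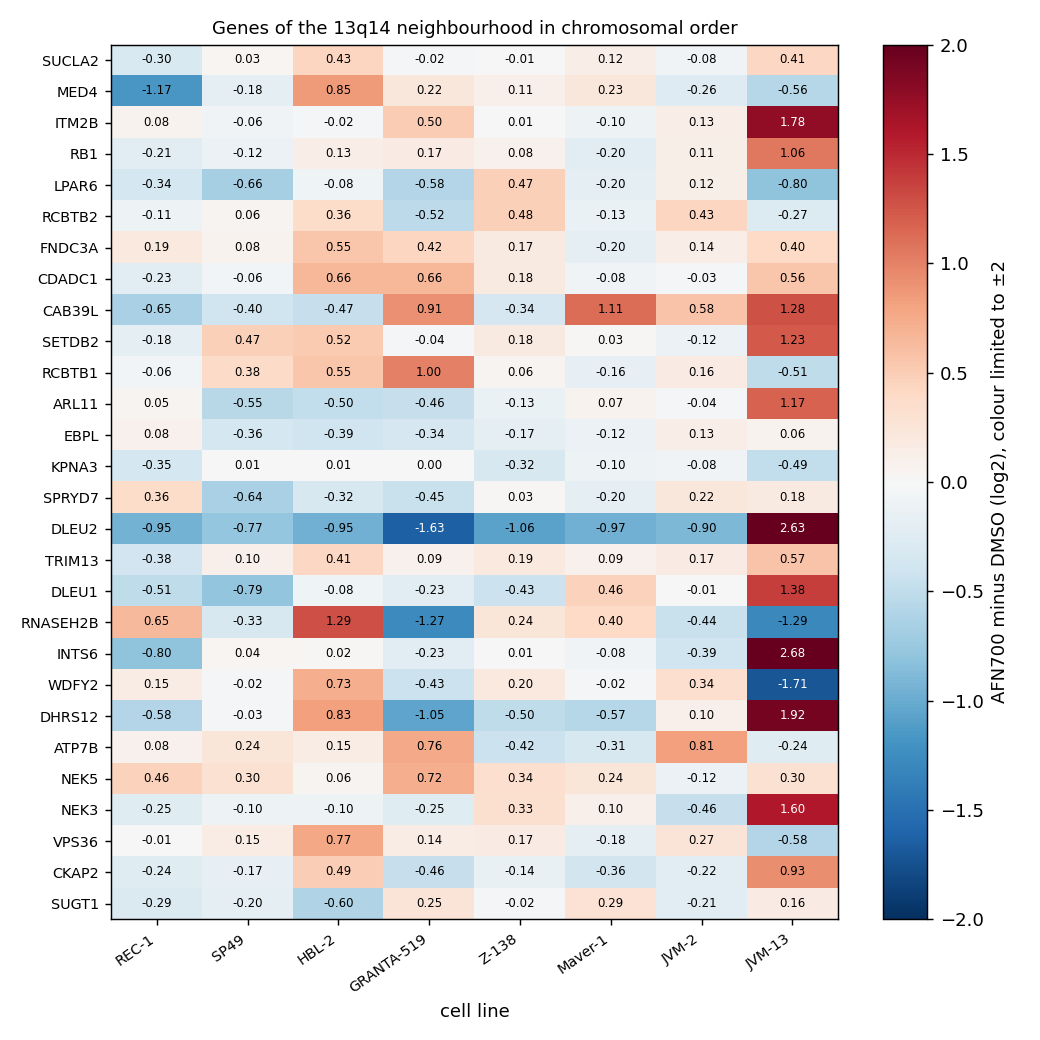
AFN700 minus DMSO difference (log2, value in each cell, colour limited to ±2) of the brightest probe set of 28 genes in chromosomal order, the 5 members included, in the 8 lines. The DLEU2 row is between -1.63 and -0.77 in 7 lines, and the JVM-13 column holds values up to 2.68 (INTS6).

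The genes reported elsewhere as targets of miR-15a and miR-16-1 held no call. Of 20 listed, 17 were measured, and 11 of the 17 had a mean below 0, with a median of -0.14. Over all 12305 genes 4564 did, with a median of 0.06. Without JVM-13 it was 12 of 17, with a median of -0.06, against 5348 of all genes and a median of 0.03. BCL2, the apoptosis inhibitor, was higher with AFN700 in 8 of 8 lines by a mean of 0.26 ± 0.25 (SD), and by 0.17 ± 0.12 without JVM-13 (limma adjusted p = 0.583 over 8 lines). CDC25A, a cell cycle phosphatase gene, was lower in 7 of 8 (-0.44 ± 0.50, limma adjusted p = 0.583). The other genes lower in 7 of 8 lines, named after their values were seen, were CDK6, CHEK1 and HMGA1, so that 4 of the 17 did this, against 506 of all 12305 genes. Without JVM-13 the checkpoint kinase gene CHEK1 averaged -0.60 ± 0.27 (limma adjusted p = 0.0550), CDC25A -0.55 ± 0.41 (limma adjusted p = 0.112) and the kinase gene CDK6 -0.49 ± 0.53 (limma adjusted p = 0.266). The transcription factor gene MYB averaged 0.29 ± 0.46, and 0.16 ± 0.28 without JVM-13, and the cyclin gene CCND2 -0.38 ± 0.86. SMC4, which hosts the paralogous miR-15b, averaged -0.02 ± 0.20, and -0.08 ± 0.14 without JVM-13.

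Genes of microRNA processing and reported regulators of DLEU2 held no call either. Of 9 listed for processing 8 were measured and 4 had a mean below 0, against 4564 of all 12305 genes. AGO2 was among them (-0.38 ± 0.46, lower in 7 lines). DROSHA, the nuclear microRNA processing enzyme, was at 0.24 ± 0.26 and lower in 1 line, AGO3 at 0.41 ± 0.60 and AGO4 at 0.26 ± 0.38. Without JVM-13 AGO2 was at -0.25, DROSHA at 0.17, AGO3 at 0.31 and AGO4 at 0.25. Of the 6 regulators 3 had a mean below 0. The B-cell factor PAX5 was lower in 7 lines (-0.29 ± 0.41), and HDAC1 averaged 0.11 ± 0.21, MYC -0.16 ± 0.50 and MAX 0.05 ± 0.41. Without JVM-13 PAX5 was at -0.31, HDAC1 at 0.18, MYC at -0.18 and MAX at 0.14. Lower values in at least 7 of 8 lines were seen for 506 of all 12305 genes, and nothing is read from those of AGO2 and PAX5. The partners of RNASEH2B in ribonuclease H2, RNASEH2A and RNASEH2C, averaged 0.25 ± 1.17 and -0.14 ± 0.94 over 8 lines, and -0.15 ± 0.32 and -0.45 ± 0.37 without JVM-13.

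The 2 brightest DLEU2 probe sets were lower with AFN700 also in Z-138 and Maver-1, the lines in which known NF-kB target genes were near no difference. All 7 measured of 8 listed NF-kB reporters had a mean below 0 over 8 lines, with a median of -0.60 and 0 calls, and without JVM-13 the median was -0.93. Over all 12305 genes 4564 had a mean below 0, and the medians were 0.06 and 0.03. NFKBIA, which encodes the NF-kB inhibitor IkappaBalpha, differed by -1.31 in REC-1, -1.63 in SP49, -1.25 in HBL-2, -1.28 in GRANTA-519, 0.01 in Maver-1, -0.11 in Z-138, -0.92 in JVM-2 and 1.47 in JVM-13. TNFAIP3, which encodes the NF-kB feedback protein A20, differed by -1.74 in REC-1, -2.47 in SP49, -1.52 in HBL-2, -0.88 in GRANTA-519, 0.06 in Maver-1, -0.05 in Z-138, -0.89 in JVM-2 and 0.30 in JVM-13. In Z-138 and Maver-1 the 7 reporters lay between -0.27 and 0.24 and between -0.03 and 0.21, while DLEU2 216870_x_at differed by -1.06 and -0.97 there. In JVM-13 all 7 reporters were higher with AFN700, by 0.30 to 1.98, as was DLEU2 216870_x_at. The JVM-13 arrays differed over 2-fold at 36.5% of the measured probe sets. The Maver-1 pair had actin ratios of 18.8 with AFN700 and 10.3 with DMSO. The part of NF-kB in the DLEU2 values was not tested. Across the 8 lines the difference of DLEU2 correlated with that of NFKBIA at r = 0.81 and rho = 0.02, and at r = -0.74 without GRANTA-519 and JVM-13, the lines farthest from the DLEU2 median, so that the first value rested on these 2 lines.

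**Figure D5:**
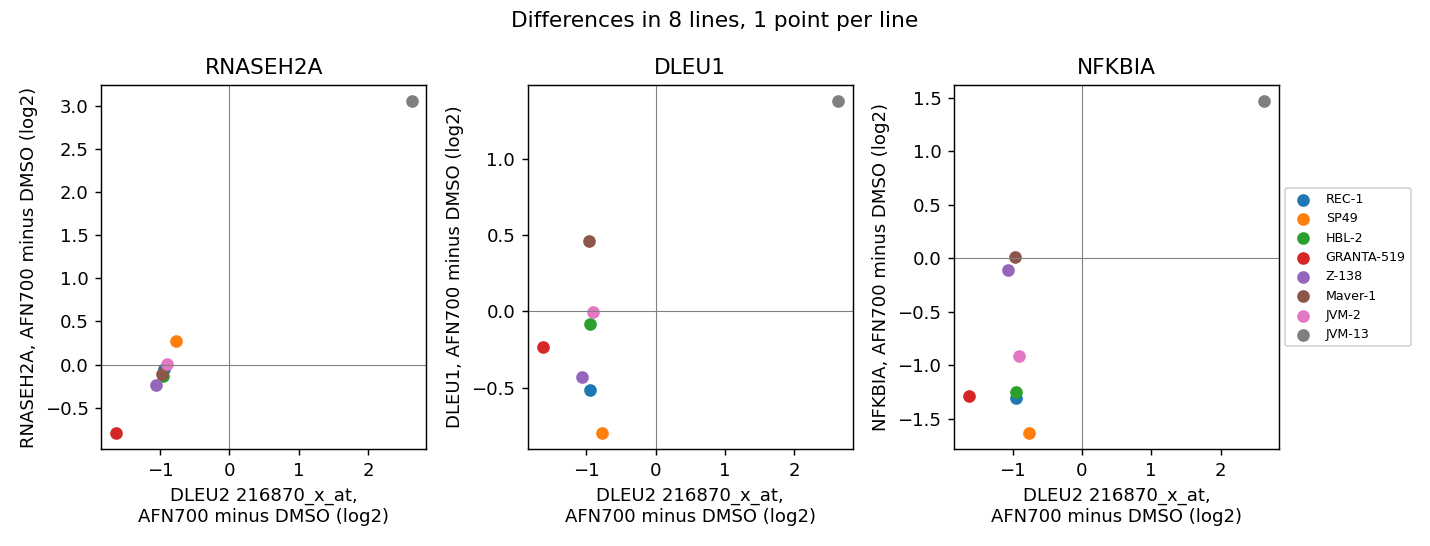
AFN700 minus DMSO difference (log2) of DLEU2 216870_x_at on the x axis against that of RNASEH2A, DLEU1 and NFKBIA on the y axes, 1 point per line. JVM-13 is at the upper right of each panel, and in Z-138 and Maver-1 NFKBIA is near 0 while DLEU2 is at -1.06 and -0.97.

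The genes whose AFN700 minus DMSO differences were most like those of DLEU2, by Pearson's r over 8 lines among 12305 genes, were RNASEH2A (0.997), SNRNP25 (0.994), NRDC (0.994), COA3 (0.994) and BRCA1 (0.993). The points share the JVM-13 pair, and without GRANTA-519 and JVM-13 the values became 0.980, 0.776, -0.42, 0.203 and 0.510. Pearson's r disregards an offset, and RNASEH2A was lower with AFN700 in 5 of 8 lines, between -0.79 in GRANTA-519 and 0.27 in SP49 outside JVM-13, where it was at 3.05. The members themselves were less alike, with r = 0.805 for DLEU1, 0.596 for TRIM13, 0.354 for SPRYD7 and -0.43 for RNASEH2B at their brightest probe sets, and -0.38, -0.07, -0.53 and -0.47 without these 2 lines.

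Without the inhibitor, DLEU2 levels spanned a wide range across the lines and did not separate the sensitive from the insensitive lines. In DMSO the order at 216870_x_at was Z-138 (751.0), JVM-2 (568.9), REC-1 (491.3), Maver-1 (249.2), HBL-2 (174.9), GRANTA-519 (171.4), SP49 (137.9) and JVM-13 (37.7). With 1 array per line, differences between neighbours in this order cannot be set against a spread. DLEU2 averaged 314.6 ± 249.9 in the sensitive lines and 325.5 ± 274.0 in the insensitive lines (SD, n = 2 and 6) on the linear scale, and 8.05 and 7.83 on the log2 scale, so that the sign depended on the scale. The log2 difference was 0.22 with a 95% interval of -1.995 to 2.43 (limma adjusted p = 0.983). At 216856_s_at the sensitive lines averaged 65.0 ± 55.2 and the insensitive lines 126.8 ± 102.2, a log2 difference of -0.84 with an interval of -2.74 to 1.07 (limma adjusted p = 0.923).

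None of the neighbours differed between these groups at an adjusted p under 0.05 either. This contrast was not used to pick the members, and limma called 1 of 28116 probe sets in it, 0.00356%, with 1545 at an unadjusted p under 0.05. Leaving out 1 line gave 92 calls without SP49, 5 without REC-1, 3 without GRANTA-519, 3 without JVM-2 and 2 without JVM-13. DLEU1 averaged 136.1 ± 186.1 in the sensitive lines and 212.0 ± 118.4 in the insensitive lines, a log2 difference of -2.02 ± 1.13 (SE) with an interval of -4.54 to 0.51 (limma adjusted p = 0.908), and this value rested on SP49, since without that line it was 0.54. TRIM13 203659_s_at averaged 318.4 ± 416.8 in the sensitive and 288.6 ± 213.1 in the insensitive lines on the linear scale, but 7.01 and 7.95 on the log2 scale, so that the direction depended on the scale. The log2 difference was -0.94 with an interval of -3.23 to 1.35 (limma adjusted p = 0.926), and without REC-1 it was 1.32. RNASEH2B 219056_at differed by -0.06 (-1.52 to 1.41) and SPRYD7 230151_at by 0.41 (-0.83 to 1.65). Over the 15 member probe sets the limma adjusted p-values ran from 0.908 to 0.994. The dim RNASEH2B 233156_at was the 1 of 15 whose groups did not overlap, at 30.2 and 33.3 in the sensitive lines and 15.4 to 30.0 in the insensitive lines. Such separation was seen at 8.99% of all measured probe sets, and a two-sided exact permutation test over the lines gave p = 0.143, where 2 lines against 6 allow no p under 0.0357.

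Across the 8 DMSO arrays the 2 bright DLEU2 probe sets ordered the lines alike, with r = 0.888 and rho = 0.958, and r = 0.770 without Z-138 and JVM-13, the lines farthest from the median. For DLEU1 the values were r = 0.557 and rho = 0.810 (r = 0.607 without these lines), and for SPRYD7 r = 0.549 and rho = 0.524 (0.359). For RNASEH2B 219056_at they were r = 0.180 and rho = 0 (-0.59), and for TRIM13 203659_s_at r = 0.037 and rho = 0.214 (-0.62). Both TRIM13 probe sets of high signal tracked each other (r = 0.940). Among 12305 genes, those with DMSO levels most like DLEU2 were SLC25A14 (r = 0.978), DYNC2LI1 (0.952), AMZ2P1 (0.938), GLRX2 (0.935) and UNK (0.931). Without Z-138 and JVM-13 their values were 0.777 to 0.927. These genes were picked for a high r over the same lines, so nothing is read from either set of values. These correlations describe 8 lines with 1 array each and share that array's scaling.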

How the data were processed

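The authors deposited 1 linear intensity per probe set and array (Affymetrix 3′ arrays), computed by MAS5 (per the submitters' processing notes) in a version not given in the sources used here. The deposited intensities have a mean of 150 on every array after trimming 2% at each end, and no detection calls were used. Probe sets were named from the platform annotation (41097 with 1 gene, 1801 with several), updated through RefSeq's gene table, and 62 controls were left out. Values were analysed as log2(intensity + 3.3), the offset being the 25th percentile. Where 1 probe set stands for a gene, it is the brightest over 16 arrays. limma 3.58.1 in R 4.3.3 (lmFit, eBayes with trend, Benjamini-Hochberg over 28116 probe sets) compared sensitive with insensitive lines on the 8 DMSO arrays, and AFN700 with DMSO on 16 arrays with the line as a block, which pairs the arrays because the labels give both the same line. Both fits were also run on simulated data with equal, independent noise on every array and no outlying pair. Those runs therefore cannot show how the fits perform on these arrays. P-values measure the spread between lines, since no line was repeated. Named genes were all members, the 5 most alike by r, the 3 lowest and highest of the neighbourhood and up to 4 of smallest p per other list, with NFKBIA and TNFAIP3, and the 3 other probe sets at least 1.5-fold lower in at least 7 lines, INTS6 and 3 further microRNA targets were named after their values were seen, as were the neighbourhood's extremes without JVM-13. The members and lists were chosen with earlier results of these data known. Alternatives were another offset, scaling, filter or trend, and leaving out lines.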

Additional observations from a re-analysis of the deposited data

Results flagged for a closer look

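Over the 15 measured member probe sets, 45 sets of values (DMSO levels and AFN700 levels of the 6 insensitive lines, and differences of the 8 lines) were searched for a line far from the rest, and chance marks about 1 in 20 such sets. 5 were marked. The sets come from the same arrays and are not independent, so these marks are not weighed against that rate. DLEU2 216870_x_at in JVM-13 had a difference of 2.63, far above the other 7 lines. DLEU2 was picked on its AFN700 minus DMSO values, so this mark is a description without a test. Z-138 was far above the other insensitive lines in the AFN700 level of DLEU2 1569600_at (5.89 on the log2 scale), in that of TRIM13 203659_s_at (9.66) and in the DMSO level of RNASEH2B 219056_at (9.26). GRANTA-519 was far below them in the AFN700 level of DLEU1 205677_s_at (6.61).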

How the results depend on the processing

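The mean difference of DLEU2 216870_x_at stayed below 0 under 14 of 14 alternatives. DLEU2 was picked on this contrast, so nothing is read from the stable sign. No member passed the threshold between sensitive and insensitive lines under any alternative run (lowest p of the exact permutation test 0.143). The count of probe sets called between these groups, 1, became 10 with an offset of 16, 7 without the filter, 4 without the trend and 0 without JVM-13 and HBL-2, an alternative chosen after seeing the data, and 1 to 92 without 1 line, with the top value without SP49. The AFN700 count of 0 lay between 0 and 45 without 1 line, the 45 being without JVM-13 (28 higher, 17 lower), and was 254 without JVM-13 and HBL-2; fitted without the block it stayed 0. Between sensitive and insensitive lines the sign of DLEU2 216870_x_at turned without REC-1 (-0.69) and without JVM-13 (-0.28). It also turned without both JVM-13 and HBL-2 (-0.49), and leaving out 1 line gave -0.69 to 1.12 there. The ranges were -1.77 to 0.10 for DLEU2 216856_s_at, -0.090 to 0.32 for 1556820_a_at, -4.58 to 0.54 for DLEU1, -3.19 to 1.32, -3.31 to 1.65, -0.97 to 0.40 and -1.33 to 0.76 for TRIM13 203659_s_at, 230192_at, 1569142_at and 229943_at, and -0.59 to 0.48 for RNASEH2B 219056_at. Without 1 sensitive line the remaining one is assumed to vary like the insensitive lines. The cause of these changes was not tested. 1 array per line and the dim probe sets limit what can be read.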
